A study of Rattus norvegicus with 4 samples.

Results

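Interferon-stimulated genes were followed in vessels of male rats, across wild type and a protein kinase C beta deletion and with or without angiotensin II. The set held 43 genes, chosen by name as textbook targets of type I interferon, of interferon gamma or of both. That choice was made with earlier results of these data known. Counts set beside those of all genes therefore only describe the set. A probe was matched through its RefSeq accession for 39 of the 43, out of 16580 named genes read by the arrays. The brightest probe stood for each gene. Of the 43 genes, 32 were well above background on all 4 arrays, against 8588 genes in the whole series. A further 6 were above it on 1 to 3 arrays, Irf8 on none, and Gbp1, Xaf1, Rigi and Herc6 had no matched probe.

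Each of 4 groups was read on a single 1-colour Agilent array. The wild-type groups were Wistar rats without Ang II (WT control) and with it (WT Ang II), where Ang II stands for angiotensin II, a peptide hormone that constricts vessels. The other groups carried the PKCbeta deletion without Ang II (KO control) and with it (KO Ang II), and vessels were exposed to the peptide for 24 h. The series text counts 4 rats of each genotype, and the sources used here do not give the pooling of RNA, the vessel bed, the age of the rats or the extent of the deletion. With 1 array a group no difference below has a p-value, a replicate error or a test.

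Levels are log2 processed signals minus the array's 75th percentile, and can be compared between arrays for 1 gene but not between genes. Each array had 40.6% to 43.5% of its probes well above background, and no spot was saturated. Spots that repeat 1 probe spread by 0.0635 to 0.0715 log2 units (median SD). The error that the scanner's software assigned was 10% to 17.3% of the signal for the 32 genes, an estimate and not a measured spread. Both concern technical error only. Prkcb itself gave processed signals of 14.7 and 17.8 on the WT arrays (control, then Ang II) and of 1.93 and 1.88 on the KO arrays, not well above background on the latter. Smooth muscle markers were well above background on every array (7 of 7 with a probe), as the tissue label calls for. The 4 arrays sat at positions 1 to 4 of 1 slide, so position and group cannot be told apart.

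Interferons are secreted proteins that cells release on sensing virus or danger. Type I interferons signal through the receptor chains Ifnar1 and Ifnar2 to a complex that holds Stat2 and Irf9 and binds the interferon-stimulated response element (ISRE). Interferon gamma, made mainly by T and NK cells, signals through Ifngr1 and Ifngr2 to genes with a gamma-activated site (GAS) and induces Irf1. Many genes answer to both, so the classes used here name the textbook or stronger inducer: 26 genes of type I, 10 of gamma and 7 of both kinds.

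The starting point of transcription was examined because type I and gamma signals are known to act through these elements. The 250 bases before the start site are shown for the 2 type I and the 2 gamma genes with the largest difference between genotypes in the Ang II response, among those with a window in RefSeq's promoter set of the GRCr8 build. Capitals mark matches on either strand to ISRE, searched as GAAA and GAAA with any 2 bases between them, or to GAS (TTCNNNGAA).
Bst2, chr16:18254968-18255217, minus strand: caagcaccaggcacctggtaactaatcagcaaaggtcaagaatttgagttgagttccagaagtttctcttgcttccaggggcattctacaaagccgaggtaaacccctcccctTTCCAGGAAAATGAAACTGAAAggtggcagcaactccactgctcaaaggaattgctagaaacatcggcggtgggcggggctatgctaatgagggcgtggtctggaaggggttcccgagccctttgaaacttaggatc
Ifit3, chr1:241527076-241527325, plus strand: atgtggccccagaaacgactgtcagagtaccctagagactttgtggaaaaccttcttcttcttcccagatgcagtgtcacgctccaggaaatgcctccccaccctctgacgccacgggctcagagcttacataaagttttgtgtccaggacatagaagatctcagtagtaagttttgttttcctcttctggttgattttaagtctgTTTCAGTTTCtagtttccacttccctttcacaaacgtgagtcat
Gbp5, chr2:233910749-233910998, plus strand: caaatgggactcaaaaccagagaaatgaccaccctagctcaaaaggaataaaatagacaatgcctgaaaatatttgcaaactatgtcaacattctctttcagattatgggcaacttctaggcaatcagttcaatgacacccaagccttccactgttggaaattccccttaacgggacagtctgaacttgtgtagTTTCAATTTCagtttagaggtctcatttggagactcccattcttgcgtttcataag
Ubd, chr20:1392686-1392935, minus strand: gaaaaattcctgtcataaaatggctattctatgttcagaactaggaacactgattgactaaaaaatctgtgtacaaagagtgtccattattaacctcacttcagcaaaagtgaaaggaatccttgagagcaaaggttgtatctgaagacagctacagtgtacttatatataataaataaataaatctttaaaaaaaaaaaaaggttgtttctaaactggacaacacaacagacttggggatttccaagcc

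The Bst2 window held a GAS match starting 137 bases before the start, overlapped by an ISRE match at 131 bases, which in turn overlapped another at 125. Ifit3 held 1 ISRE match at 44 bases and Gbp5 1 at 56 bases, and the Ubd window held neither set of letters. Over the 35 genes with a window, 20 held an ISRE match (57.1%) against 3.61% of 27457 genes, and 10 held a GAS match (28.6%) against 8.19%. GAS matches were found in 5 of 10 gamma genes and 2 of 18 type I genes, and ISRE matches in 6 of 10 and 12 of 18. Among genes above background on all arrays, Ang II in WT gave a median log2 ratio of 0.80 for the 16 with an ISRE match and 0.37 for the 11 without. For GAS the order was the other way, at 0.61 for the 8 with a match and 0.76 for the 19 without. A match is a description of these letters and was not tested as a binding site.

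The first comparison asked how the interferon targets stood after Ang II in WT vessels. All 32 genes were higher on the WT Ang II array, where 55.6% of all genes were above 0. Their median log2 ratio was 0.74, a 1.67-fold difference, beside 0.04 over all genes. At least 2-fold higher were 8 of the 32, Bst2, Usp18, Ifit3, Gbp5, Cmpk2, Oas1a, Ubd and Ifi47, against a background of 1.11% of all genes, and none was 2-fold lower against 0.349%. With normexp, another background correction, Oas1a (0.84) and Ifi47 (0.44) fell short of 2-fold, and Ifi47 also with scaling to detected probes (0.99 by percentile or median). The lowest value was 0.16, for Ifi44.

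In KO vessels the same comparison gave values near 0. The median log2 ratio for Ang II in KO was -0.11, beside -0.01 over all genes, with 8 of 32 above 0 against 48.6% of all genes. None of the 32 passed 2-fold in either direction, where 0.116% of all genes were 2-fold higher and 0.466% 2-fold lower. The values ran from -0.76 (Bst2) to 0.18 (Ifit2). For 11 of the 32 genes the sign of the KO ratio changed with the processing, and all of these ratios lay between -0.25 and 0.35.

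The difference of the responses, KO minus WT, was below 0 for every one of the 32 genes, where 56.0% of all genes lay below 0. Only Dtx3l changed sign there under an alternative, the mean of its probes (0.05). The median difference was -0.84 beside -0.05 over all genes. A difference of at least 2-fold downward was reached by 12 genes, against 2.85% of all genes, and upward by none, against 1.27%. The 12 became 7 with normexp, where Mx1, Oas1a, Rsad2, Nmi and Ubd lay between -0.99 and -0.84, and Rsad2 was -0.99 with quantile scaling too. Opposite signs in WT and KO together with a 2-fold difference were seen for 11 of the 32, against 3.76% of all genes. Bst2 ranked 1 from the bottom among the 8588 genes, Gbp5 12, Usp18 28 and Ifit3 42. The WT Ang II array was the highest of the 4 for 26 genes, where it was the highest for 32.2% of all genes, and the lowest for none, against 25.6%. These comparisons share arrays: a high reading on WT Ang II enters Ang II in WT, the difference of responses and KO against WT with Ang II alike.

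**Figure D1:**
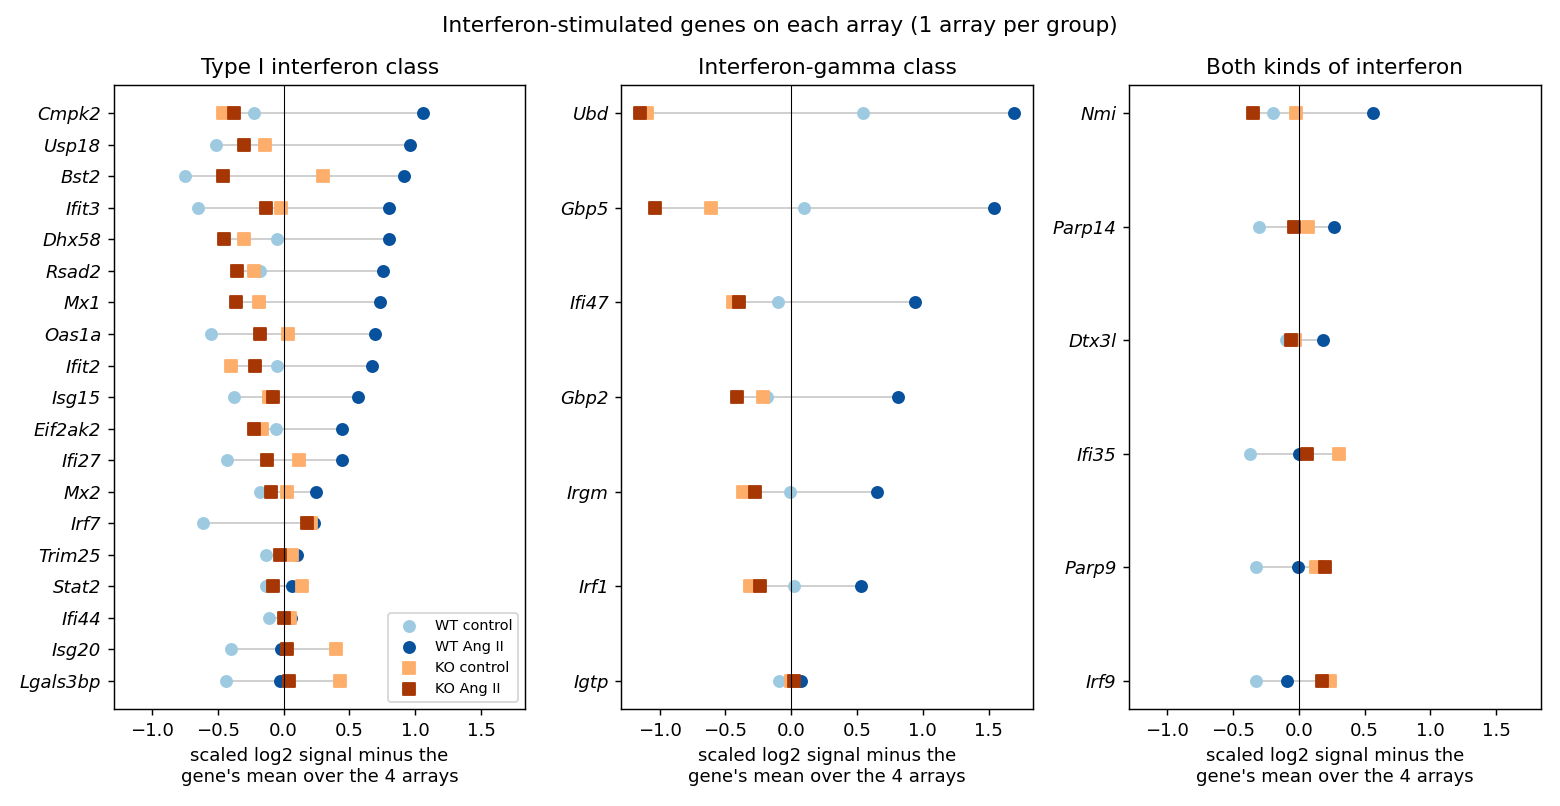
Level of each of the 32 genes on the 4 arrays, as the scaled log2 signal minus the gene's own mean, with circles for WT, squares for KO and 1 array per group. WT Ang II (dark blue) lies farthest right for 26 genes, and for 6 of the 7 gamma genes both KO squares lie left of WT control.

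Among the transcription factors, Irf7, the amplifier of type I interferon production, read 4.90 and 5.75 on the WT arrays (control, then Ang II) and 5.72 and 5.70 on the KO arrays. Irf7 thus stood low on WT control alone, with the other 3 arrays within 0.05 of one another. That closeness depends on the processing. With normexp the log2 ratio of KO over WT for Irf7 was 0.54 without Ang II and -0.31 with it. Values of other genes are given in the order WT control, WT Ang II, KO control, KO Ang II. Irf1, the gamma-induced factor, read 5.02, 5.54, 4.69 and 4.77, so that both KO arrays lay under both WT arrays. Irf9, the DNA-binding subunit of the type I complex, read 3.87, 4.10, 4.43 and 4.37, with both KO arrays above both WT arrays on this probe. A second Irf9 probe read -1.03, -0.43, -0.56 and -0.85, with KO Ang II below WT Ang II, so the order of those arrays is not settled for Irf9. Stat2 ran only from 4.59 to 4.87.

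Of the sensors, Dhx58 (LGP2, a regulator of RNA sensing) read -0.53 and 0.32 on the WT arrays and -0.78 and -0.93 on the KO arrays. That is 1.80-fold higher for Ang II in WT and 2.38-fold lower in KO than in WT with Ang II. With normexp these log2 ratios shrank from 0.85 to 0.27 and from -1.25 to -0.54, short of 2-fold. Ifih1 (MDA5, a sensor of long double-stranded RNA) was dim on WT control, so only bounds hold: at least 1.53-fold higher for WT Ang II and at least 1.95-fold higher for KO control. Its WT Ang II and KO Ang II levels were -2.27 and -2.24. Zbp1, a sensor of Z-form nucleic acid, was not well above background in KO control. It was 2.38-fold higher for Ang II in WT and at least 1.62-fold higher for Ang II in KO, where its level reached -1.74 against -1.08 in WT Ang II.

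The antiviral effectors included the gene with the largest log2 ratio for Ang II in WT among the 32. Bst2 (tetherin, which holds budding virus at the cell surface) read 3.15 and 4.82 on the WT arrays and 4.20 and 3.44 on the KO arrays. Bst2 was high in WT Ang II and in KO control, and its KO arrays ran in the other order from its WT arrays. Oas1a, which makes the activator of RNase L, read 0.83 and 2.07 on the WT arrays and 1.41 and 1.20 on the KO arrays. A second Oas1a probe gave a log2 ratio of 1.22 for Ang II in WT and -0.16 in KO, beside 1.24 and -0.21 on the brightest one. Ifit3, which binds foreign RNA with its relatives, read 0.92, 2.37, 1.55 and 1.44, so that both KO arrays lay between the WT arrays.

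Cmpk2, a mitochondrial nucleotide kinase, had another shape, at 3.03, 4.31, 2.79 and 2.88, with both KO arrays below WT control. Rsad2 (viperin, encoded beside Cmpk2) read 6.18, 7.12, 6.13 and 6.01, also with both KO arrays below WT control. Its log2 ratio of KO over WT without Ang II was only -0.05, and -0.21 on a second Rsad2 probe. That probe put the difference of responses at -1.16, beside -1.06 on the brightest. Mx1, a dynamin-like GTPase against influenza virus, read 5.38, 6.30, 5.38 and 5.20, and was high on WT Ang II alone. Ifit2 read 2.91, 3.63, 2.56 and 2.74 and was low on both KO arrays. The kinase Eif2ak2 (PKR), which stops translation in infected cells, read 1.44, 1.94, 1.33 and 1.27. Its second probe put KO control above WT control, by 0.28. Isg20, an exonuclease, and Mx2 had lower values for Ang II, with log2 ratios of 0.38 and 0.43 for Ang II in WT and -0.37 and -0.12 in KO. Isg20 was highest on KO control, at 3.61 against 2.81 on WT control.

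Of the dim effectors, Oasl was well above background on WT Ang II alone, at least 1.86-fold over WT control and at least 1.60-fold over KO Ang II. Samhd1, which depletes nucleotides, and the RNA editor Adar were not well above background in KO control. Their log2 ratios for Ang II in WT were 0.53 and 0.26, and in KO at least 0.25 and at least 0.03.

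Isg15, the ubiquitin-like protein joined to new proteins, read 4.88 and 5.83 on the WT arrays and 5.15 and 5.18 on the KO arrays. Usp18, the protease that removes Isg15 and damps the type I receptor, read 0.99, 2.47, 1.37 and 1.21. Both genes were high on WT Ang II, with both KO arrays between the WT arrays. Ubd (FAT10, a ubiquitin-like protein that sends targets to the proteasome) was the gene most set apart by genotype, at 4.23, 5.38, 2.59 and 2.54. Ubd was low on both KO arrays, 3.12-fold below WT without Ang II and 7.17-fold below it with Ang II, ranking 32 and 3 from the bottom among 8588 genes. The partners Parp9 and Dtx3l, which add ADP-ribose and ubiquitin, had log2 ratios of 0.32 and 0.29 for Ang II in WT, and Parp14 and the ligase Trim25 had 0.57 and 0.24.

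The GTPases that attack intracellular microbes were mostly gamma genes. Gbp5 read 3.78 and 5.22 on the WT arrays and 3.08 and 2.65 on the KO arrays. It was 2.71-fold higher for Ang II in WT and 5.94-fold lower in KO than in WT with Ang II, ranking 5 from the bottom. Gbp2 read 4.97, 5.96, 4.94 and 4.74, just under 2-fold for Ang II in WT (1.99-fold). Ifi47, an immunity-related GTPase, read -0.94, 0.10, -1.28 and -1.24, and its relative Irgm -1.47, -0.81, -1.83 and -1.74. Both are dim, and with normexp their log2 ratios for Ang II in WT shrank from 1.04 to 0.44 and from 0.66 to 0.23. Igtp, of the same family, differed little at 5.68, 5.85, 5.78 and 5.80. Gbp4 was well above background on WT Ang II alone, at least 1.40-fold over WT control.

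Of the remaining genes, Ifi27 read 4.77, 5.64, 5.32 and 5.08, with both KO arrays between the WT arrays. Lgals3bp, a secreted glycoprotein, read 5.54, 5.95, 6.41 and 6.02, and was highest on KO control. Nmi, a partner of STAT proteins, read 2.61, 3.37, 2.78 and 2.45. Ifi35, which binds Nmi, ran from -1.66 in WT control to -0.98 in KO control, a log2 ratio of 0.67 that was 0.11 with normexp, and Ifi44 only from 2.43 to 2.59.

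**Figure D2:**
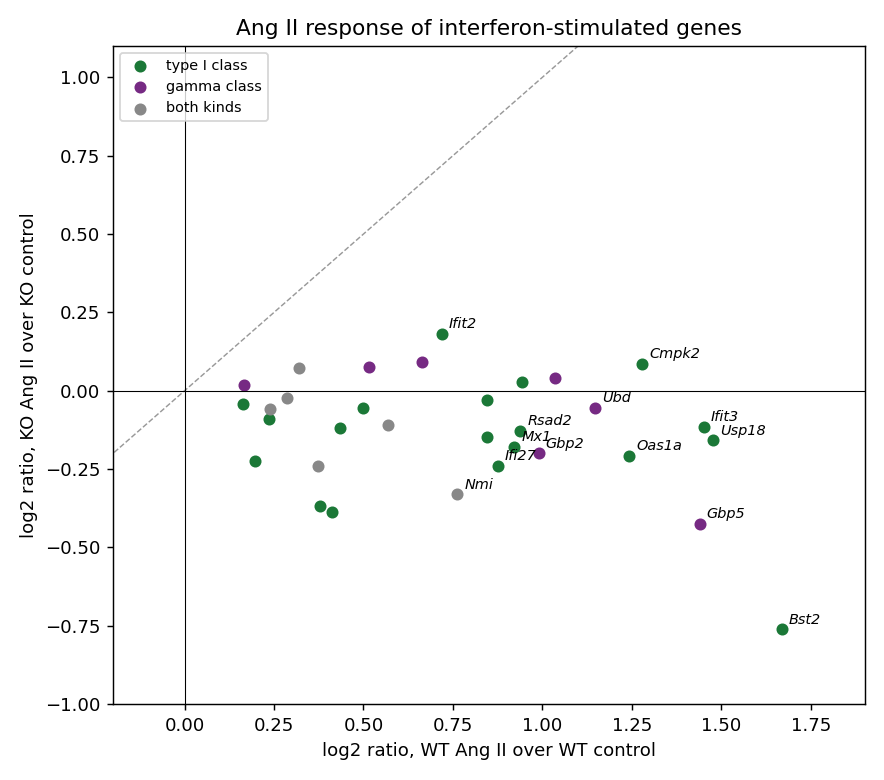
Log2 ratio for Ang II in WT (horizontal) against that in KO (vertical) for the 32 genes, 1 point a gene, coloured by class, with the line of equal response dashed. Every point lies right of 0 and under the dashed line, from Bst2 (1.67 and -0.76) to Ifi44 (0.16 and -0.04).

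The contrast of the classes asked whether type I and gamma targets moved alike. For Ang II in WT they did not separate in a settled way: the median was 0.85 over 19 type I genes and 0.99 over 7 gamma genes. Their difference of -0.14 became 0.20 after normexp background correction and 0.02 with dim genes at their bounds. The medians of the difference of responses were -0.91 and -0.99, and their gap of 0.08 became -0.27 with normexp. The genes of both kinds stood at -0.46 over 6 genes. For Ang II in KO the medians were -0.13 for type I and 0.02 for gamma.

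The classes separated between genotypes. Without Ang II, 14 of 19 type I genes were above 0 for KO against WT, with a median of 0.26, and 1 of 7 gamma genes was, Igtp at 0.09, with a median of -0.34. All 6 genes of both kinds were above 0, with a median of 0.42. Over all genes 53.0% were above 0, with a median of 0.03. The type I median exceeded the gamma median by 0.61, and by 0.29 with normexp. Bst2, 2.07-fold higher, was the one gene 2-fold higher of 32, against 1.82% of all genes, and Ubd the one 2-fold lower, against 2.74%. With normexp Bst2 was at 0.90 and 0 genes were 2-fold higher. Lgals3bp (0.87), Irf7 (0.82) and Isg20 (0.79) followed Bst2 (0.54 and 0.50 with normexp for the last pair), and Gbp5 (-0.71) followed Ubd. Mx1 (0.0011), Irgm (-0.36), Dtx3l (0.07), Eif2ak2 (-0.11) and Nmi (0.17) changed sign under at least 1 other processing, and the other 27 genes did not.

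This comparison rests on the scaling, since the 75th percentile was 58.7 on WT control and 47.3 on KO control, which adds 0.31 to every KO against WT ratio. The gap between the classes does not depend on that constant. Other genes known to be induced by gamma, from a list outside the 43, did not all stand with the gamma class. There the median for KO against WT without Ang II was 0.31 over 7 genes, with Tap1 at 0.89, Cd274 at 0.86 and Psmb8 at 0.49, and the chemokines Cxcl10 and Cxcl11 at -0.32 and -0.63.

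With Ang II, KO lay below WT for most type I and gamma genes. The median was -0.67 for type I, with 17 of 19 below 0, and -1.22 for gamma, with 7 of 7 below 0, beside -0.02 over all genes. For the genes of both kinds it was -0.09, with 3 of 6 below 0. At least 2-fold lower were 10 of the 32, against 3.97% of all genes, and none was 2-fold higher, against 1.60%. With normexp Ifi47 (-0.56) and Dhx58 (-0.54) fell short of 2-fold. Over all genes 51.4% lay below 0. The gap between class medians was 0.55, 0.27 with normexp and 0.42 with dim genes at their bounds. Irf7 (-0.05), Isg20 (0.05) and Lgals3bp (0.07), all higher in KO without Ang II, were near 0 here, though Irf7 was -0.31 with normexp. Irf9 (0.27), Isg20, Dtx3l (-0.24) and Lgals3bp changed sign under at least 1 other processing.

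Set against the WT control array, 13 of 19 type I genes had both KO arrays above it, against 45.3% of all genes, and 5 had both below it, against 39.4%. Of the 7 gamma genes 6 had both KO arrays below WT control. Against WT Ang II, both KO arrays were lower for 16 of 19 type I and 7 of 7 gamma genes, against 44.1% of all genes.

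**Figure D3:**
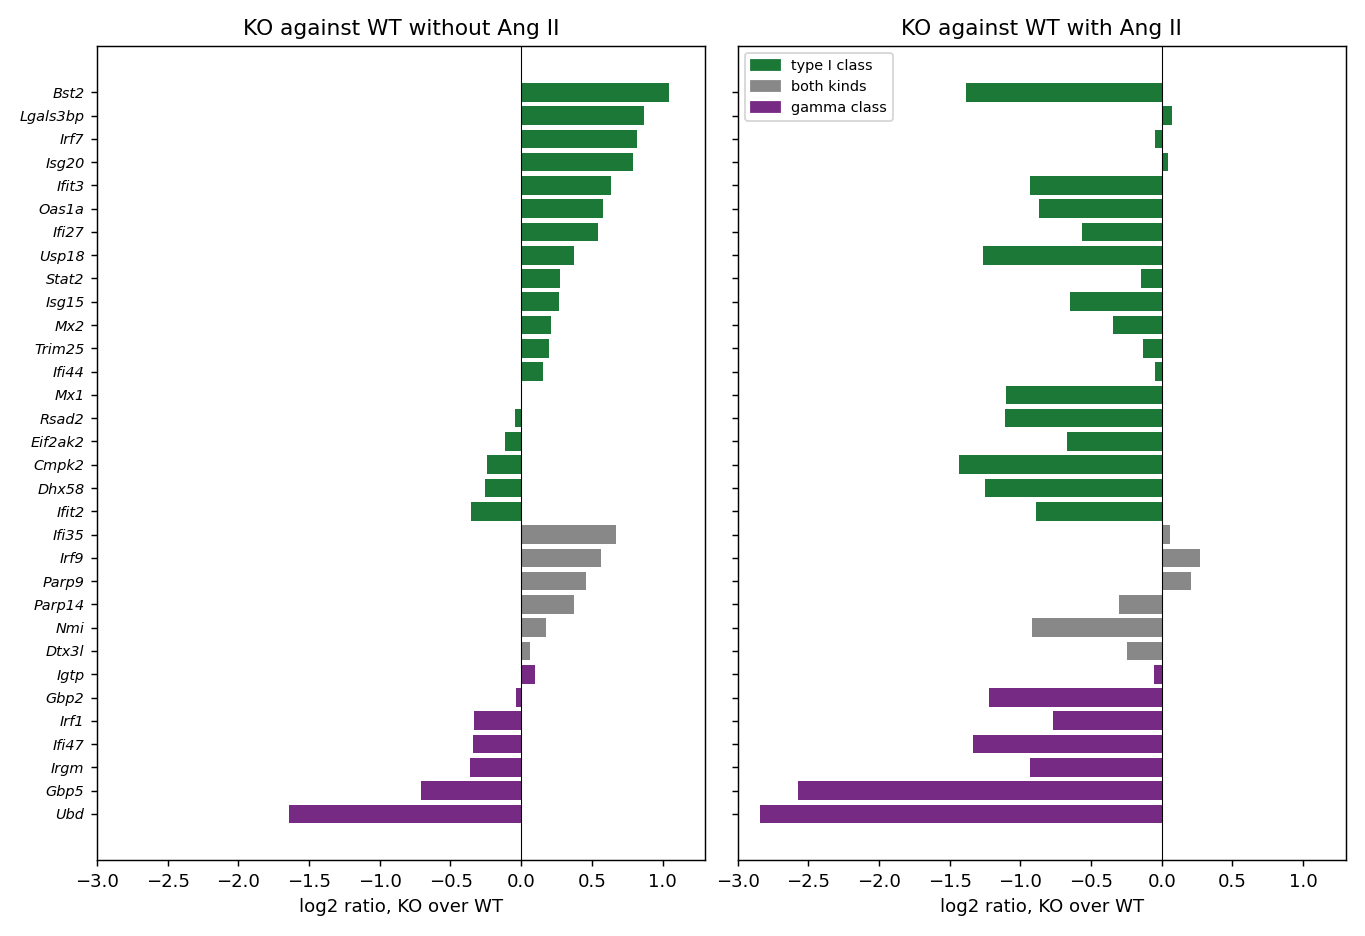
Log2 ratio of KO over WT for the 32 genes without Ang II (left) and with it (right), as bars from 0 coloured by class, 1 array per group. On the left most type I bars point right and all gamma bars but Igtp point left, from Bst2 (1.05) to Ubd (-1.64), and on the right 27 of the 32 bars point left.

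Second probes gave a further measure on the same arrays. Of 9 genes with another probe, 8 had it well above background on all arrays. The sign for Ang II in WT was the same on both probes for 8 of 8 and that of the difference of responses for 7 of 8, the exception being Dtx3l. The sign of KO against WT without Ang II was the same for 5 of 8, and Ifi44, Trim25 and Eif2ak2 turned. It was the same for 6 of 8 for Ang II in KO, where Igtp and Dtx3l turned. It was also the same for 6 of 8 for KO against WT with Ang II, where Irf9 and Dtx3l turned and only 1 of the 8 pairs of probes lay within 0.25 of each other.

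Upstream of these genes, the ligands were dim. Of 6 interferon genes with a probe, 5 (Ifng among them) were not well above background on any array, and Ifnb1, the fibroblast interferon, was well above it on WT Ang II alone, with a log2 ratio of at least 0.30 over WT control. The gamma receptor chain Ifngr1 read 3.40 and 4.08 on the WT arrays and 2.99 and 3.06 on the KO arrays, and was thus highest on WT Ang II and lowest on the KO arrays. Ifnar1 ran from 1.09 to 1.41 and Ifngr2 from 1.60 to 1.92, both highest on WT Ang II.

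The kinases Jak1 and Tyk2 ran from 6.22 to 6.44 and from -1.13 to -0.89, and Jak2 was lowest in KO Ang II. Genes of interferon production had a median of -0.06 for Ang II in WT over 7 genes, with 3 above 0, against 55.6% of all genes. Irf5 stood apart among them at 0.72 in WT and -0.22 in KO, and Irf3 was higher in KO by 0.80 without Ang II and 0.61 with it. Over the receptor, feedback and production lists, none of the genes above background on all arrays was 2-fold different for Ang II in either genotype. That is rare over all genes too, with 1.11% higher and 0.349% lower in WT, and 0.116% and 0.466% in KO. In the list of other gamma-induced genes 4 of 7 were at least 2-fold lower in the difference of responses, against 2.85% of all genes.

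**Figure D4:**
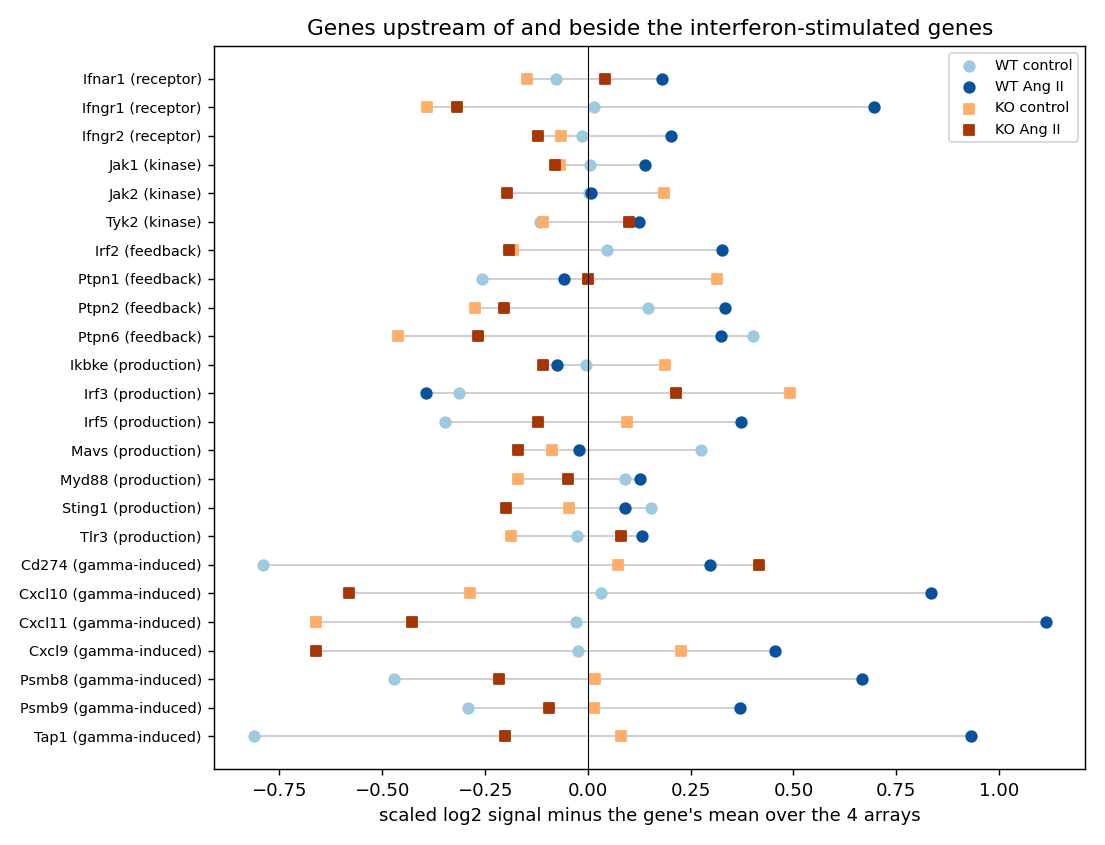
Levels of receptors, kinases, feedback and production genes and other gamma-induced genes on the 4 arrays, as the scaled log2 signal minus the gene's mean. Ifngr1 is highest on WT Ang II and lowest on KO control, and the widest spreads belong to gamma-induced genes such as Tap1 and Cxcl11.

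Markers of immune cells stood beside these values as follows. Macrophage markers had 8 of 9 genes well above background on WT control and 7 of 9 on each other array, with Mrc1 on none. Their summed scaled signal, a linear signal divided by the array's 75th percentile, was 36.2 and 50.3 on the WT arrays and 20.0 and 24.2 on the KO arrays. That order of arrays is the one of Ifngr1, and its part in the interferon targets was not tested. The sum weighs the brightest markers most, here Lyz2 and Cd14, and not every marker had that order. Mpeg1 was higher in KO by 0.63 without Ang II and 0.77 with it, alone among the 6 above background on all arrays. Cd163, not well above background on KO Ang II, had a log2 ratio of -1.66 for Ang II in WT. For Ang II in WT 5 of those 6 were above 0, against 55.6% of all genes. Within macrophage markers the median difference of responses was -0.0024 over 6 genes, with 3 above 0 and 3 below, where 56.0% of all genes lay below. The values ran from -0.57 (Adgre1) to 0.14 (Mpeg1). The median log2 ratio of KO over WT for macrophage markers was -0.75 without Ang II and -0.83 with it.

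T and NK cell markers had 2 of 11 genes above background on every array, Cd4 and Cd3d, with Cd3e, Nkg7, Gzmb and Prf1 on none, and their summed signal was 2.76 to 2.93. B cell (2 with a probe) and neutrophil markers (4 with a probe) had none above background on any array. Smooth muscle markers summed to 126 and 120 on the WT arrays and 169 and 187 on the KO arrays, with a median log2 ratio of KO over WT of 0.61 without Ang II and 0.56 with it. Fibroblast markers had medians of 0.43 for Ang II in WT and -0.27 in KO. Their difference of responses was -0.40, with 4 of 4 genes below 0, against 56.0% of all genes. Endothelial markers went the other way, with medians of -0.20 in WT, 0.24 in KO and 0.59 for the difference. Only 1 of 6 endothelial genes was below 0 in the difference. Lymphatic endothelial markers had 0.33, -0.29 and -0.62 over 2 genes, Prox1 and Pdpn, both below 0 in the difference. The lymphatic markers did not all move alike for Ang II in WT. Lyve1 was lower there, at -1.64, and was not well above background on either KO array. Flt4 was higher by at least 0.26. Erythroid markers had 0.84 in WT and 0.54 in KO, with 3 of 3 higher in each, against 55.6% and 48.6% of all genes. Their difference of responses was -0.35. White adipocyte markers, all dim, summed to 1.26 and 0.89 on the WT arrays and 0.29 and 0.36 on the KO arrays. Adipoq and Fabp4 were not well above background in KO control. Plasmacytoid dendritic cell markers (Tcf4 and Il3ra) summed to 23.6 and 25.3 on the WT arrays and 25.8 and 28.7 on the KO arrays. The part of these lists in the interferon targets was not tested. In tissue RNA, fewer cells of a type and less RNA per cell cannot be told apart.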

How the data were processed

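Cy3-labelled RNA of 4 rat vessel samples was read on 1-colour Agilent arrays, 1 per group. The deposited processed intensity was background-subtracted and spatially detrended within each array, per the file headers, with no normalization between arrays. Feature Extraction is 12.1.1.1 in the submitters' processing notes and 10.7.1.1 per the file headers. A value table deposited by the authors is on a log2 scale (column medians 2.11 to 2.30). It equals log2 of the processed intensity plus an unstated constant per array, within 0.01 for 98.0% to 98.1% of 45594 probes. From WT control to KO Ang II the constant was -0.26, -0.34, 0.05 and -0.09, beside 75th percentiles of 58.7, 62.4, 47.3 and 52.1. The constant was lower where the percentile was higher, so that table nearly repeats the scaling used here.

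Control spots and outlier spots were left out and spots of a probe averaged. From the log2 processed intensity the array's 75th percentile was subtracted. Probes were named by accession through RefSeq's GRCr8 gene table: 21107 of 45594 probes had a name and 24487 had none. The brightest probe stood for a gene. A gene not well above background on 1 side of a comparison was given as a bound, with the dim level raised, where lower, to the array's weakest signal well above background. Ratios were differences of log2 levels, with 2-fold counts over genes above background on all arrays. Every member is accounted for, and pathway genes are named with up to 4 values a list. A further pathway gene is not reported here.

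The members and lists were chosen with earlier results of these data known. The computation was tested on simulated data. With 1 array a group there is no replicate check, and precision is limited by how few arrays there are. Of 8 alternatives, normexp (limma 3.58.1, R 4.3.3, offset 50) was to use mean signals and used median ones, which the files hold. Other steps used Python 3.11.15, numpy 2.4.6 and pandas 2.3.3.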

Additional observations from a re-analysis of the deposited data

Results flagged for a closer look

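Ang II gave log2 ratios of opposite sign in WT and KO for the members' median, at 0.74 and -0.11, and the median of the per-gene differences was -0.84. For the type I genes the medians were 0.85 and -0.13, with a median per-gene difference of -0.91. For the genes of both kinds they were 0.35 and -0.08, with a median per-gene difference of -0.46. The KO medians were near 0, and that of all members was -0.02 with normexp. With 1 array a group none of these differences was tested.

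Of single genes, 11 had opposite signs and a difference of at least 2-fold, against 3.76% of all 8588 genes. The difference of responses was -2.43 for Bst2, -1.86 for Gbp5, -1.64 for Usp18, -1.56 for Ifit3 and -1.45 for Oas1a. It was -1.20 for Ubd, -1.19 for Gbp2, -1.11 for Ifi27, -1.10 for Mx1, -1.09 for Nmi and -1.06 for Rsad2. The KO ratios of Ifit3, Mx1, Rsad2 and Ubd changed sign under at least 1 other processing.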

How the results depend on the processing

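Each result was recomputed under 8 alternatives: 75th percentile or median of detected probes, normexp, quantile scaling, the mean of a gene's probes, dim genes at their bounds, outlier spots kept, and the deposited value table. Of 160 alternative values for medians, counts and class differences, 147 stayed within the tolerance and 2 reversed. Some of these could not differ, so the count overstates the stability. Scaling to detected probes shifts each array by a constant and leaves class differences unchanged. Bounds do not enter the difference of responses. The deposited value table nearly repeats the main scaling, with a members' median of 0.741 beside 0.740 for Ang II in WT. With normexp the median was 0.64 for Ang II in WT, 0.055 for KO against WT without Ang II, -0.56 with Ang II and -0.64 for the difference of responses. With it, 0 genes were 2-fold higher in KO without Ang II (1 before), and 7 were 2-fold lower in the difference of responses (12 before). The type I minus gamma difference with normexp was 0.20 for Ang II in WT (-0.14 before), -0.00186 in KO, 0.29 between genotypes without Ang II, 0.27 with it and -0.27 for the difference of responses (0.08 before). With bounds included it was 0.020 for Ang II in WT and 0.42 between genotypes with Ang II. The cause of these changes was not tested. The sign held under every alternative for 32 of 32 genes for Ang II in WT, 21 in KO, 27 and 28 between genotypes without and with Ang II, and 31 for the difference of responses. Tolerances come from replicate spots and cover technical error only. No paired analysis was possible because each group holds 1 array. A gene not well above background on an array has only a bound there.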
